A study of Caenorhabditis elegans with 2 samples.

Results

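The loci described here are the microRNA genes of the nematode Caenorhabditis elegans, and the measurement is the binding of the chromatin protein ATHP-1 at them. The members are all 261 genes with the biotype miRNA among 46890 genes of the Ensembl annotation on WBcel235, the build the peak lists name ce11. Each gene was extended by 200 bp to both sides, and the summit of a peak, the position of its highest signal, had to lie in that window. The genes were then separated by position. A total of 109 lay inside a protein-coding gene, 21 outside such a gene but in a promoter window (500 bp upstream to 200 bp downstream of a protein-coding transcript 5′ end), and 131 elsewhere.

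ATHP-1, a protein with AT-hooks and PHD fingers, was mapped by chromatin immunoprecipitation and sequencing with an antibody against GFP. All animals belonged to strain OP685, whose genotype is unc-119(tm4063) III with wgIs685, a transgene from which ATHP-1 was expressed with GFP-FLAG at its carboxy end. Whole young adults of mixed sex were collected 64 hours after starved first-stage larvae began to grow, so binding in different tissues is averaged. There were 2 biological replicates in 1 group, and values are therefore compared between loci and between the replicates alone. The lists are the authors' reproducible list with 1649 peaks, their pooled list with 30000 regions and a list of 30000 regions for each replicate. The strength of a region is the signal score of the authors' peak caller, which has no unit and is compared only by rank or within a list. The reproducible peaks are the 1649 strongest pooled regions, and their signal scores began at 105.6.

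MicroRNAs are short RNAs cut from a hairpin-shaped transcript by the nuclear enzyme Drosha and then by Dicer. An Argonaute protein carries them to messenger RNAs, which they recognise mainly through the seed, bases 2 to 8 of the mature microRNA, and whose translation or stability they lower. In C. elegans the founding members lin-4 and let-7 time larval development, and the mir-35 and mir-51 families are needed for embryos to develop. MicroRNAs with the same seed form a family and can share targets, and several hairpins are often cut from a single transcript.

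Several of the summits near microRNA genes lay at members of 3 seed families, whose mature sequences are shown to make the shared seeds visible. The sequences were read from the RefSeq assembly of WBcel235 at the mature positions of its annotation, 5′ to 3′, with the seed in capitals. The seed ACCCGUA was common to all 6 listed members of the mir-51 family.
mir-51: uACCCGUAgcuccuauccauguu
mir-52: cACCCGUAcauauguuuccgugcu
mir-53: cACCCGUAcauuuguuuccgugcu
mir-54: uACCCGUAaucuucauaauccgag
mir-55: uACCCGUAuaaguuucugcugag
mir-56: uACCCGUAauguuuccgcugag

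The mir-35 family shared the seed CACCGGG in all 8 members, of which the first and the last of the cluster on chromosome II are shown. mir-80 stands for the mir-58 family, in which 4 members shared the seed GAGAUCA.
mir-35: uCACCGGGuggaaacuagcagu
mir-41: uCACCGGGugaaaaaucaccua
mir-80: uGAGAUCAuuaguugaaagccga

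The DNA under the summits of 5 chosen loci is shown. These peaks lie upstream of, or on, microRNA genes and outside protein-coding exons and promoter windows. The summit of mir-2214, inside its hairpin in an intron, also met this description and is not shown. Each stretch of 201 bp has the summit as its middle base and reads 5′ to 3′ on the strand of the microRNA (WBcel235). Capitals mark matches on either strand to CTCCGCC, letters taken from an element described upstream of nematode microRNA genes, or to GGTTCGA, the core of the B box inside tRNA genes, where RNA polymerase III factor TFIIIC binds. Neither was found in the 300 bp around the mir-2214 summit. The mir-51 stretch is IV:11026075-11026275 on the minus strand, that of mir-4936 III:3249129-3249329 on the plus strand, that of mir-54 X:13145189-13145389 on the minus strand, that of mir-35 II:11537307-11537507 on the plus strand and that of mir-80 III:8865482-8865682 on the minus strand.
mir-51: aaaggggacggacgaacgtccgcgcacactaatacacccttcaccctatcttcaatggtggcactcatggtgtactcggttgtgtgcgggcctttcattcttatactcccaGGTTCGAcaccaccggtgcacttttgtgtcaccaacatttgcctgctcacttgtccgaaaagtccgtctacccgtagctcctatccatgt
mir-4936: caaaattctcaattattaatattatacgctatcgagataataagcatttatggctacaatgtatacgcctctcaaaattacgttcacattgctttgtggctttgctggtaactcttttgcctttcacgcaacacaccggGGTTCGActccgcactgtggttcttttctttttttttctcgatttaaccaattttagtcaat
mir-54: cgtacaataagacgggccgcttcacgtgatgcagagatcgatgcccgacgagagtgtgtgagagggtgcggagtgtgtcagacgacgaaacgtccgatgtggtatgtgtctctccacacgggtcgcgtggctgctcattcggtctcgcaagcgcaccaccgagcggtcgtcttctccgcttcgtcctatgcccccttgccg
mir-35: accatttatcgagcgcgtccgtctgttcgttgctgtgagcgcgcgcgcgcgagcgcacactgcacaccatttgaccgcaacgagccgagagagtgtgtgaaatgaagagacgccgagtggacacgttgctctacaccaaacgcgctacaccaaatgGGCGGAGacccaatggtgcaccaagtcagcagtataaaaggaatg
mir-80: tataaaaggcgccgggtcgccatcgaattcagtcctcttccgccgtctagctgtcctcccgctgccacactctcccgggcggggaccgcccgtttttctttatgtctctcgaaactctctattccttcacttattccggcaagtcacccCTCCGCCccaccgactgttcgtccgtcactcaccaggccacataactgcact

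The 7 microRNA genes with a reproducible summit within 200 bp were mir-51, mir-4932, mir-54, mir-4936, mir-5549, mir-4934 and mir-2214. They made up 2.68% of the 261 microRNA genes (95% interval 1.08 to 5.45%, exact Clopper-Pearson, which covers only the counting of genes), against 4.47% of all annotated genes by the same rule. The background share lay inside the interval of the microRNA genes. It includes 15363 piRNA genes, a class with few summits, which lowers it. A background without them would be higher and was not counted, so the interval does not place microRNA genes against the remaining genes. Among other short noncoding genes, 257 of 612 tRNA genes (42.0%), 72 of 346 small nucleolar RNA genes (20.8%) and 24 of 129 small nuclear RNA genes (18.6%) had such a summit, and 16 of 15363 piRNA genes (0.104%) did. MicroRNA genes are short, with a median of 95 bp, whereas protein-coding genes had a median of 2027 bp and so more sequence in which a summit could fall. The share was 6.67% for protein-coding genes and 4.62% for the 7764 genes of biotype ncRNA (median 140 bp). It was 1.08% for the 2128 pseudogenes (median 1183.5 bp), and the part of length in these shares was not tested.

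Position split the 7 genes. Of the 131 microRNA genes elsewhere, 2 had a reproducible summit, mir-51 and mir-4936 (1.53%, 95% interval 0.185 to 5.41%). Of the 130 inside a protein-coding gene or in a promoter window, 5 did (3.85%, 95% interval 1.26 to 8.75%). Those 5 were mir-2214 and mir-54, which lie in introns, and mir-4932, mir-5549 and mir-4934, which were 3 of the 21 in promoter windows (14.3%, 95% interval 3.05 to 36.3%). The intervals of these classes overlapped, and the difference between them was not tested. On the X chromosome, which holds 74 microRNA genes, mir-54 was the single bound gene (1.35%, 95% interval 0.0342 to 7.30%), against 4.78% of all genes there. On the autosomes 6 of 187 were bound (3.21%, 95% interval 1.19 to 6.85%), against 4.43% of all genes, and the intervals of X and autosomes overlapped. Both background shares were counted with piRNA genes left in. How those genes divide between X and autosomes was not counted, so the backgrounds may be unlike.

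**Figure D1:**
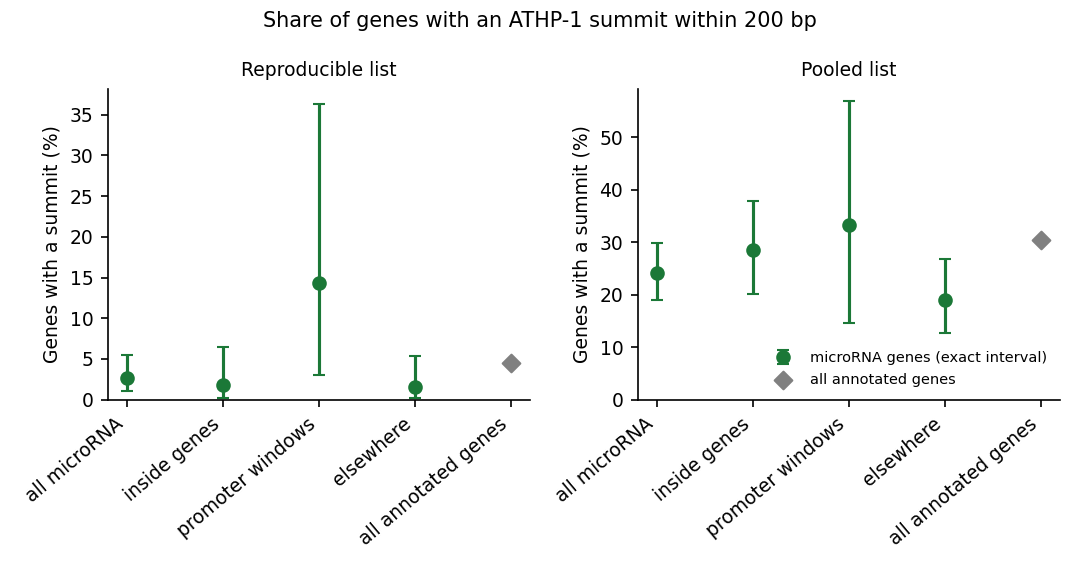
Percentage of microRNA genes with a summit within 200 bp in the reproducible list (left) and the pooled list (right), for all 261, for the 109 inside protein-coding genes, the 21 in promoter windows and the 131 elsewhere, with exact 95% intervals as bars. The diamond is the percentage of all annotated genes, piRNA genes included, 4.47% and 30.5%. On the left it lies inside the interval of each class, and on the right above the intervals of all microRNA genes and of those elsewhere.

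mir-51 had the strongest peak of the 7. It is a hairpin of the mir-51 family at IV:11026013-11026112 on the minus strand, outside protein-coding genes. Its pooled signal score was 275.4, rank 125 of 30000, and the replicate regions nearest the summit had scores of 185.2 (rank 41) in replicate 1 and 95.0 (rank 523) in replicate 2. The peak was strong in both lists, with the better rank in replicate 1, and the replicate summits lay 1 and 31 bp from the pooled one. The summit was 63 bp upstream of the hairpin and fell in F36H1.17, an annotated noncoding RNA gene at IV:11026131-11026219. The nearest annotated gene for a structured RNA (tRNA, small nucleolar or spliceosomal) was a small nucleolar RNA gene, 56972 bp away. GGTTCGA began 11 bp downstream of the summit on the strand of the microRNA, as the capitals in the mir-51 stretch show.

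mir-4936, at III:3249151-3249260 on the plus strand, was the other bound gene outside protein-coding genes and promoter windows. Its summit lay inside the hairpin, 78 bp from its 5′ end. The pooled signal score was 150.3 (rank 728), with 74.8 (rank 709) in replicate 1 and 75.3 (rank 946) in replicate 2. The replicates were close in score, and their summits lay 0 and 15 bp from the pooled one. GGTTCGA was present here as well, 39 bp downstream of the summit on the plus strand, and the nearest annotated gene of the structured RNA classes was a tRNA gene 53709 bp away. The letters thus lay near the summits of both bound genes outside protein-coding genes and promoter windows. They were chosen after the mir-51 stretch was seen, so only the match at mir-4936 was not known beforehand. Of all reproducible summits, 12.3% had the letters in the 300 bp around them.

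mir-54 begins a cluster of 3 mir-51 family hairpins on the X chromosome, in an intron of F09A5.3 and on the strand opposite to that gene. The hairpin is at X:13144996-13145094 on the minus strand, and the summit lay 195 bp upstream of it. The same summit was 365 bp upstream of mir-55 and 502 bp upstream of mir-56, so that it preceded all 3 hairpins. The pooled signal score was 189.1 (rank 392), with 73.7 (rank 737) in replicate 1 and 121.3 (rank 269) in replicate 2. Both replicates held a strong region there, but their own summits lay 201 and 223 bp from the hairpin, just past the window. A hairpin on the other strand, F09A5.15, named cel-mir-55b in Ensembl, overlaps the cluster, and the summit lay 370 bp downstream of it.

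The 3 bound genes in promoter windows shared their summits with protein-coding promoters. mir-4932, on chromosome I, held its summit inside the hairpin, in the promoter windows of klp-16, a kinesin gene, and smn-1, the homolog of the human survival of motor neuron gene. Its pooled signal score was 231.8 (rank 215), with 97.2 (rank 324) in replicate 1 and 137.8 (rank 180) in replicate 2. mir-5549, at III:6971976-6972085, had its summit 42 bp upstream, in the promoter windows of eef-1A.1, for a translation elongation factor, and rfc-4, for a replication factor C subunit. Its pooled signal score was 143.6 (rank 814), with 71.2 (rank 811) in replicate 1 and 68.8 (rank 1177) in replicate 2. mir-4934, at IV:9825312-9825421, had its summit 45 bp upstream, in the promoter window of mtr-4, for an RNA helicase of the nuclear exosome. Its pooled signal score was 125.8 (rank 1097), with 92.3 (rank 562) in replicate 2, while the nearest region of replicate 1 had 31.4 (rank 7060) and a summit 91 bp away. At these 3 loci the hairpin and the coding promoter cannot be told apart as the place of binding.

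mir-2214 had the weakest of the 7 peaks and the widest gap between the replicates. It lies at III:7278715-7278778 in an intron of B0361.11, on the strand of that gene, with the summit inside the hairpin. The pooled signal score was 107.4 (rank 1573), with 27.3 (rank 10168) in replicate 1 and 86.7 (rank 651) in replicate 2. The region of replicate 1 was thus far below the 1649 strongest of its list.

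**Figure D2:**
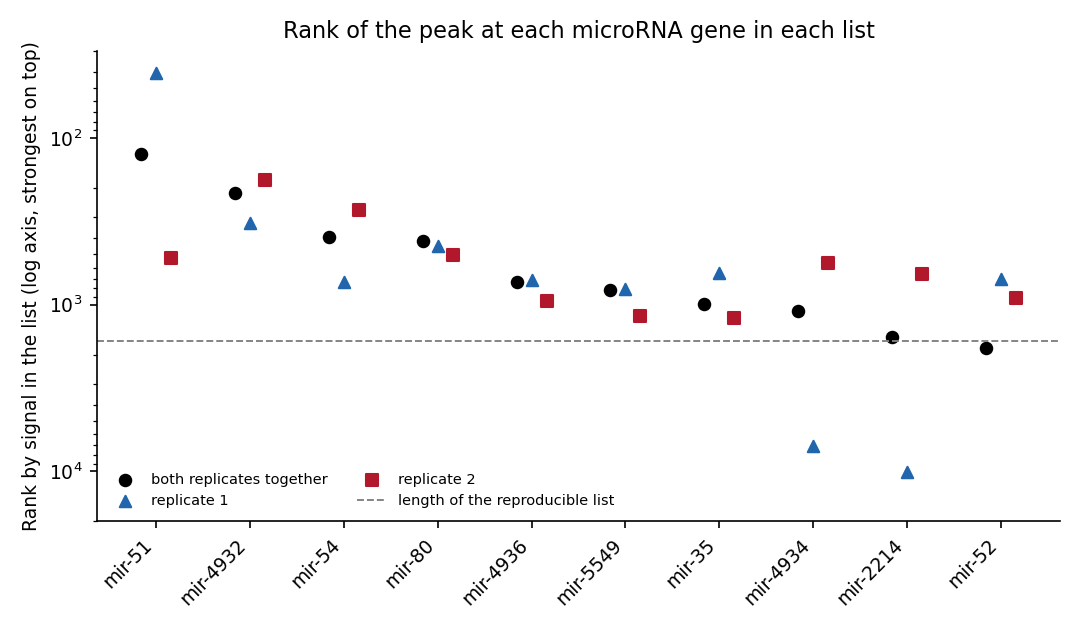
Rank by signal score (log axis, strongest on top) of the region at each microRNA gene in the pooled list, replicate 1 and replicate 2, with the 1649 reproducible peaks ending at the dashed line. mir-4934 and mir-2214 fall to ranks 7060 and 10168 in replicate 1, and the pooled region shown for mir-52 lies 755 bp upstream of that gene.

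The rule's edge at 200 bp ran through the loci of other families. mir-35, at II:11537608-11537704 in an intron of Y62F5A.9 on the opposite strand, had its summit 201 bp upstream, 1 bp outside the window, and mir-80, at III:8865270-8865367 and outside protein-coding genes, had one 215 bp upstream. On the other side of the edge, mir-54 was inside by 5 bp. The mir-35 peak had a pooled signal score of 131.8 (rank 998), with 77.2 (rank 647) in replicate 1 and 68.5 (rank 1197) in replicate 2. It preceded all 7 hairpins of the cluster from mir-35 to mir-41, and the last of them began 901 bp downstream of the summit. The mir-80 peak had a pooled signal score of 183.4 (rank 416), with 87.4 (rank 444) in replicate 1 and 96.2 (rank 501) in replicate 2. Both peaks were within the 1649 strongest regions of each replicate.

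Within 1000 bp of a reproducible summit there were 24 microRNA genes (9.20%, 95% interval 5.98 to 13.4%), against 7.03% of all annotated genes. This background includes the piRNA genes and was not counted without them. It also lay inside the interval, so no excess at microRNA genes is read from these shares. These genes shared 15 distinct summits. For 16 of the 24 the summit was upstream, for 3 inside and for 5 downstream, but hairpins of a cluster share 1 summit and are not independent. When genes on the same strand with gaps of up to 1000 bp were joined, 227 units remained, of which 18 were clusters with 52 genes in all. Of the 227 units, 16 lay within 1000 bp of a summit (7.05%, 95% interval 4.08 to 11.2%), with the summit upstream for 8, inside for 3 and downstream for 5. The 7.03% of all genes was counted by gene without such joining, so the share by unit has no like background here.

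**Figure D3:**
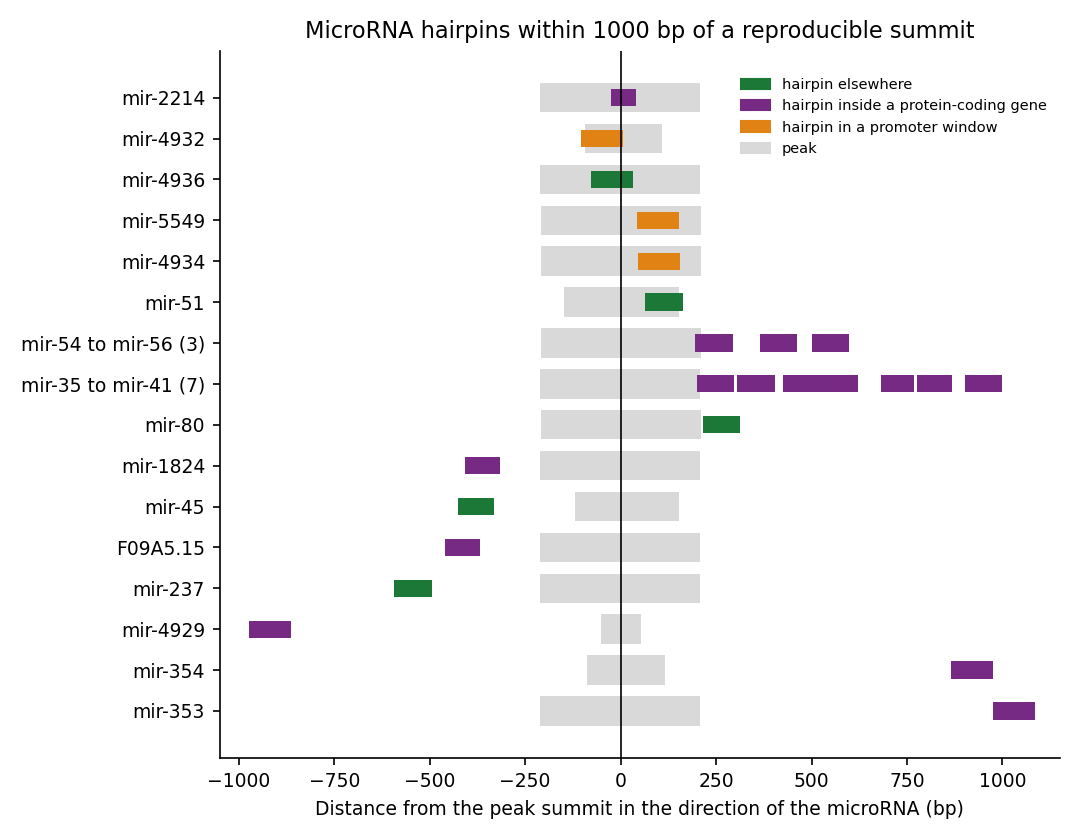
Hairpins (coloured bars) and peaks (grey) of the 16 units within 1000 bp of a reproducible summit, drawn with the summit at 0 and the direction of the microRNA to the right; the number of hairpins of a cluster stands in parentheses. Bars to the right of 0 have the summit upstream of them, as at mir-54 to mir-56 and mir-35 to mir-41, and mir-54 and F09A5.15 share a summit from opposite strands.

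At mir-45, mir-1824 and mir-237, further outside the window, the summit lay downstream. mir-45, outside protein-coding genes, had a summit 332 bp downstream, with a pooled signal score of 221.2 (rank 244), 139.7 (rank 107) in replicate 1 and 88.3 (rank 618) in replicate 2. mir-1824 had one 316 bp downstream that fell in the promoter windows of Y87G2A.1 and Y87G2A.18, with a pooled score of 154.7 (rank 663). Replicate 2 had 97.8 (rank 472) there, but the nearest region of replicate 1 had 21.8 (rank 17067) and a summit 643 bp away. mir-237, of the lin-4 family, had a summit 496 bp downstream with a pooled score of 128.0 (rank 1056), 39.4 (rank 3824) in replicate 1 and 89.2 (rank 604) in replicate 2. The mir-237 summit lay 44 bp from a tRNA gene. The replicates were thus both strong at mir-45 and unequal at mir-1824 and mir-237.

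The letters CTCCGCC, read on both strands in 300 bp around each summit, were found at 2 of the 7 summits within 200 bp of a microRNA gene, those of mir-4932 and mir-54. Over all 15 distinct summits within 1000 bp they were found at 4 (26.7%), with mir-35 and mir-80 as the others. The same letters were in 5.70% of the 1649 reproducible summits, in 4.79% of 19973 protein-coding promoters of that length, and in the 300 bp before 32 of the 227 microRNA units (14.1%). In the printed stretches the match began 56 bp downstream of the mir-35 summit, on the opposite strand, and 49 bp downstream of the mir-80 summit, and the mir-54 match lay outside its printed 201 bp. GGTTCGA was found at 2 of the 7 and 2 of the 15 summits, those of mir-51 and mir-4936, in 12.3% of all reproducible summits, in 1.43% of promoters and in 395 of 612 tRNA genes (64.5%). GAGAGA was found at 3 of the 7 and 6 of the 15, in 32.0% of summits and 21.7% of promoters. AAATTT was found at 4 of the 7 and 7 of the 15, in 47.2% of summits and 52.9% of promoters. GGTTCGA was chosen after the mir-51 stretch was seen. None of the 4 strings contains another, the counts are small and untested, and a match does not show a site.

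The GC content of the 201 bp around the 7 summits ran from 36.3% at mir-4936 to 60.7% at mir-54, with a median of 39.3%. Over all 1649 reproducible summits the median was 42.3% (quartiles 36.8 and 47.8%), and the genome had 35.4%. Of the 7, mir-51 (52.2%) and mir-54 (60.7%) lay above the upper quartile and mir-4936 below the lower one. The values between the quartiles were 38.8% at mir-2214 and at mir-5549, 39.3% at mir-4934 and 43.8% at mir-4932. Outside the window, mir-35 (56.2%) and mir-80 (57.7%) were above the upper quartile, and mir-1824 (42.8%), mir-45 (37.3%) and mir-237 (40.3%) were not.

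The mir-51 family carried 2 of the 7 bound genes, and 4 of its 6 members lay within 1000 bp of a reproducible summit. mir-53 lies upstream of mir-51 on the same strand and had no reproducible summit within 200 bp. It had a pooled region with a score of 55.8 (rank 6732), with 15.8 in replicate 1 and 46.1 in replicate 2. mir-52, at IV:14034008-14034107, differed between the lists. Replicate 1 had a region there with a score of 75.2 (rank 702) and replicate 2 one of 76.3 (rank 917), but no pooled summit lay within 200 bp, and the nearest reproducible summit was 36.97 kb away. The closest pooled summit was 755 bp upstream, with a score of 100.8 (rank 1816), just below the lowest reproducible score of 105.6. Such a gap between lists was rare. Of 999 regions among the 1649 strongest of both replicates with summits at most 200 bp apart, 9 (0.901%) had no pooled summit within 200 bp, and of the 5 shared regions at microRNA genes, the one at mir-52 was among these 9. mir-52 was singled out after its values were seen.

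Of the mir-35 family, 7 of 8 members lay within 1000 bp of a reproducible summit, all through the single summit upstream of the cluster. mir-42, the member outside that cluster, was 9.20 kb from one. Among the 5 listed members of the mir-58 family, mir-80 alone was within 1000 bp, and the other 4 were 61.4 to 100.2 kb away. None of the 7 let-7 family members lay within 1000 bp, and their distances ran from 9.98 to 75.7 kb with a median of 35.2 kb. Weaker pooled regions were present at let-7 (score 43.2), mir-48 (70.5) and mir-84 (27.2). lin-4 itself was 57.2 kb from the nearest reproducible summit and had no pooled summit within 200 bp, while mir-237 of the same family was 0.496 kb from one. Of 8 single genes, among them lsy-6, mir-1 and mir-34, none was within 1000 bp, and the nearest were mir-71 at 1.40 kb and mir-34 at 1.88 kb. Over all 261 genes the median distance was 27.5 kb, with quartiles of 8.17 and 57.5 kb, and 6 of the 7 let-7 family members lay between these quartiles.

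**Figure D4:**
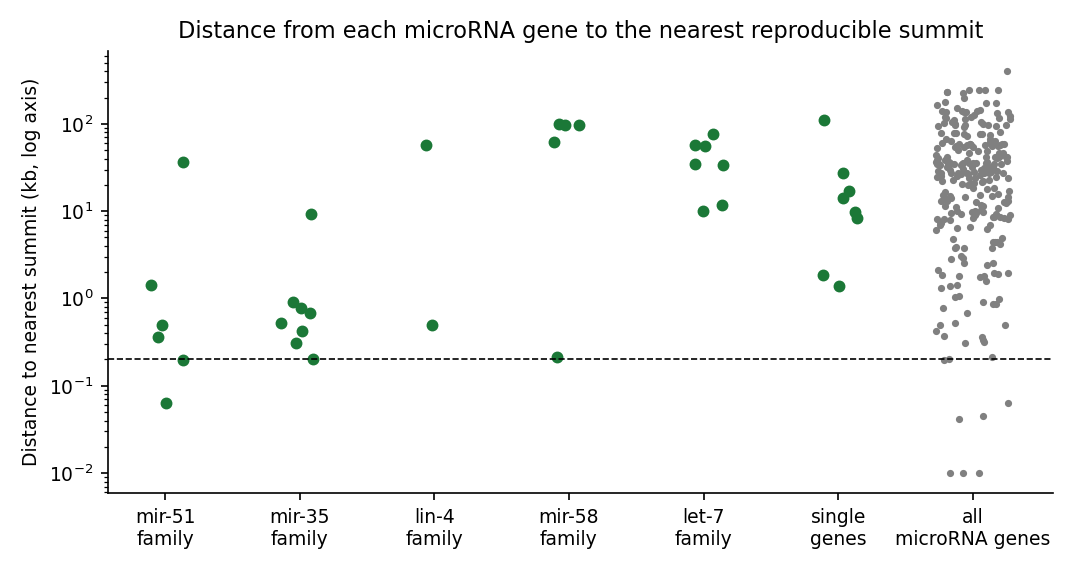
Distance in kb (log axis) from each microRNA gene to the nearest reproducible summit, by family and for all 261 genes in grey, with the 0.2 kb window edge dashed. The 3 members with a summit inside the gene are drawn at 0.01 kb, and the mir-51 and mir-35 families hold most of their points below 1 kb while every let-7 family member lies above 9 kb. The 7 mir-35 family points below 1 kb share a single summit, and so do mir-54, mir-55 and mir-56.

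The pooled list, which reaches far below the reproducible peaks, had a summit within 200 bp of 63 of 261 microRNA genes (24.1%, 95% interval 19.1 to 29.8%), against 30.5% of all annotated genes. The share of all genes lay above this interval. It too includes the piRNA genes, of which 354 of 15363 (2.30%) had a pooled summit within 200 bp, which lowers it. The share without them would be higher, and so further above the interval, but it was not counted. The pooled list had a summit at 25 of 131 genes elsewhere (19.1%) and 38 of 130 in a protein-coding gene or promoter window (29.2%). These 63 genes met 66 pooled regions, with signal scores from 26.3 to 275.4 and a median of 43.6, against a median of 38.7 over all pooled regions. Of the 66 regions, 7 were reproducible (10.6%, 95% interval 4.37 to 20.6%), against 5.5% of all pooled regions.

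The 10 strongest pooled regions at genes without a reproducible summit within 200 bp had scores from 62.2 to 99.8. At the top were mir-4812 (99.8) and mir-1829.3 (95.6), both inside piki-1, a phosphoinositide kinase gene. Next were mir-354 (88.1) in rps-20, for a ribosomal protein, mir-87 (87.0) in kup-1 and mir-4929 (84.8) in E01G4.3. The remaining 5 were mir-34 (74.7), mir-77 (72.5), mir-48 (70.5), mir-270 (70.2) and mir-1833 (62.2). Of these 10 genes, mir-48 had no summit in replicate 2, and the others had one in each replicate.

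Separately, 72 microRNA genes had a summit in replicate 1 (27.6%), against 32.1% of all genes, and 66 had one in replicate 2 (25.3%), against 32.5% of all genes. Both replicates had a summit at the same 39 genes (14.9%, 95% interval 10.8 to 19.9%), against 23.6% of all genes. The shares of all genes given for the replicate lists include the piRNA genes and were not counted without them. The 39 microRNA genes are taken up next. They were 54.2% of the microRNA genes with a summit in replicate 1 and 59.1% of those in replicate 2. At these 39 genes the median signal score was 28.9 in replicate 1 and 31.2 in replicate 2, and the scores were related across genes with Spearman's rho of 0.560 and Pearson's r of 0.629 on the log10 scale. These values describe 39 loci that share 2 libraries and were kept only where both lists had a region. The summits of the replicates lay a median of 99 bp apart and were within 100 bp of each other at 20 of the 39 genes.

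**Figure D5:**
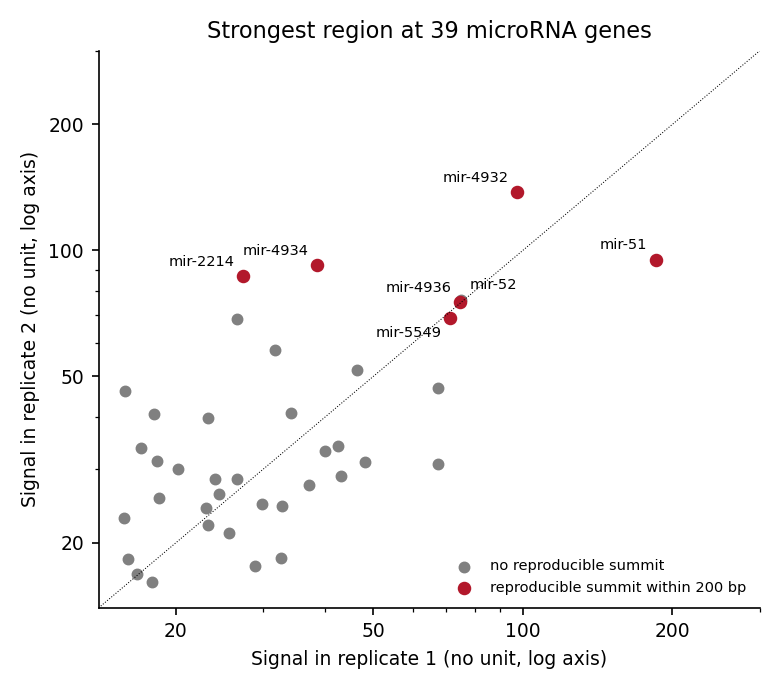
Signal score of the strongest region within 200 bp in replicate 2 against replicate 1 (log axes, no unit) at the 39 microRNA genes with a summit in both, with bound genes in red and equal scores on the dotted line. mir-51 lies on the side of replicate 1, and mir-2214 and mir-4934 on the side of replicate 2; the strongest replicate 1 region of mir-4934 within 200 bp scored 38.6, and mir-54 is not shown because its replicate summits fell past 200 bp.

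The protein-coding genes of the microRNA pathway were looked at by a list of roles, of which 28 matched the annotation. A reproducible summit lay in the promoter window of 2 (7.14%, 95% interval 0.877 to 23.5%), against 4.71% of all protein-coding genes. Production genes had none of 4, with drsh-1, pash-1, dcr-1 and xpo-1, which encode Drosha, its partner, Dicer and an exportin. Genes of microRNA action had 1 of 10, vig-1, for a component of the silencing complex, and the Argonaute genes alg-1, alg-2 and alg-5 were not among the bound. Its summit was 425 bp upstream of the 5′ end with a score of 313.0 (rank 82), 132.8 in replicate 1 and 181.0 in replicate 2. Genes of decay had 1 of 4, xrn-2, for an exonuclease that degrades mature microRNAs, with a summit 29 bp upstream and a score of 168.5 (rank 524), 113.2 in replicate 1 and 68.3 in replicate 2. Targets and regulators, such as lin-14, lin-28 and lin-41, had none of 10. A pooled summit lay in the promoter window of 16 of the 28 (57.1%, 95% interval 37.2 to 75.5%), against 30.7% of all protein-coding genes. At vig-1 and xrn-2 it was the reproducible peak itself, and at the other 14 it was weaker. The pathway genes had a mean of 2 annotated 5′ ends, against 1.47 over all protein-coding genes, so they also had more windows per gene, and the part of this in the count was not tested.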

How the data were processed

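Peak lists on ce11 from 2 biological replicates were used. The authors called each replicate list on that replicate against a control alignment and the pooled list on both replicates, and derived the reproducible list from these 3, per the deposited readme files. Strength is the signal score deposited by the authors, relative to the control. The deposited −log10 q-value was not used in tests, since 1393 reproducible peaks share its maximum of 3.44. The summit is the deposited offset from the region's start. The sources used here name no aligner, caller, threshold or read depth, so depth sets no stated precision. The ce10 lists were not used here.

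Genes came from Ensembl release 115 and names, mature positions and sequence from RefSeq, both on WBcel235; all 261 microRNA genes matched by WormBase identifier. Promoter windows used 29314 protein-coding 5′ ends. Counts carry exact binomial 95% intervals, which treat genes as independent, and no difference was tested. The window match was right in 200 of 200 simulated windows. Members, gene lists and alternatives were chosen with earlier results of these data known.

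Named genes are those with a reproducible summit within 200 bp, the 10 strongest others in the pooled list, up to 6 beyond the window, the family lists and the bound pathway genes. Alternatives were each replicate alone, other thresholds, flanks, overlap rules, promoter windows and annotation. Calculations were run in Python 3.11.15 (scipy 1.17.1, pandas 2.3.3, numpy 2.4.6) and plots drawn with matplotlib 3.10.9.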

Additional observations from a re-analysis of the deposited data

How the results depend on the processing

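The count of 7 microRNA genes with a reproducible summit depended most on the flank: it was 3 at 0 bp, 16 at 500 bp and 24 at 1000 bp, 13 with any overlap of peak and window, and 12 with the 3298 strongest pooled regions. It was 7 with RefSeq genes, without summits at structured RNA genes and by distinct summits, and 5 with the 824 strongest peaks. With either replicate alone it was 7 to 8, and 4 of the 7 were kept under both (mir-51, mir-4932, mir-4936, mir-5549), while mir-54 was lost under both and mir-52 gained. Of the 2 outside protein-coding genes and promoter windows, 1 was counted at 0 bp and 5 were counted at 500 bp and at 1000 bp. With promoter windows of 1000 bp upstream to 500 bp downstream the count was 1, and with either replicate alone it was 3. Of the pooled count of 63, flanks of 0 and 500 bp gave 14 and 113, the strongest 15000 and 5000 regions 41 and 16, and overlap 101; either replicate alone gave 66 to 72. The count of 39 in both replicates became 4 and 81, 24 and 8, and 72 under the same changes. The 2 pathway genes became 1 with 200 bp to each side and 5 with the wider window, and 2 to 3 with either replicate alone. Of all 39 alternatives, 18 stayed within 1.5 times, some of them given above, and 21 did not. No paired analysis was possible because there is 1 group. Read depth is unknown, so weak regions cannot be weighed by it.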
